A study of Daphnia magna with 20 samples.

Results

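Carbohydrate-digesting enzymes were examined in the water flea Daphnia magna kept for 21 days with plastic particles (ethylene acrylic acid copolymer) or with fumed silica, a mineral particle. The enzymes were taken by wording: any name that contains amylase, cellulase, glucanase, glucosidase, galactosidase, mannosidase, mannanase, fucosidase, glucuronidase, hexosaminidase, maltase, trehalase or xylanase, and not chitin. This rule found 40 of the 7784 names in the table of transcript levels. Of these, 36 are names of glycosidases, the enzymes that cut the bonds between sugars. The other 4 are tubulin polyglutamylases, which add glutamate chains to tubulin and matched only because polyglutamylase contains the letters of amylase, so they are described apart. The marker of carbohydrate digestion, alpha-amylase, was found in all 20 libraries.

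The groups had 5 libraries each. Nano_low was kept with the copolymer at 2.3e11 particles per litre, nano_high with the copolymer at 2.3e12 particles per litre, silica with fumed silica at 2.3e12, a figure given without a unit, and control with the vehicle. All animals were started less than a day old, lived singly in jars, and ate green algae (Raphidocelis subcapitata) with a suspension of yeast, wheat grass and fish food. Feeding stopped for the last day. Each library was made from poly-A RNA of pooled whole animals. How many animals made up a library, and whether the libraries came from separate cultures, is not stated in the labels. The p-values therefore measure only how far these samples spread, which may be technical. In whole animals, fewer cells of a type and less RNA per cell cannot be told apart.

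Animals digest starch with alpha-amylase, which cuts the long chain, and with alpha-glucosidases, which free glucose from the pieces. Water fleas eat algae, whose cells hold starch and are enclosed by walls of polysaccharides, and endoglucanases cut cellulose-type chains of such walls from within. Trehalase splits trehalose, a blood sugar of many arthropods. Not all glycosidases serve the gut: lysosomal exoglycosidases take single sugars from the ends of glycans inside cells, and glucosidases and mannosidases of the endoplasmic reticulum and Golgi trim the sugar trees of newly made proteins. By wording, 8 of the 40 names fell into starch and trehalose, 3 into cell wall, 13 into exoglycosidases, 12 into glycoprotein processing and 4 into tubulin polyglutamylase.

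Library totals were 39087882 to 95906857 counts in nano_high and 11918440 to 26562258 in control, so that each nano_high library was deeper than each control library. Nano_low had 9689064 to 40227246 and silica 7912434 to 54862334 counts. The libraries also differed in other tissues. Summed over the 30 collagen names, the lowest 5 libraries were nano_low 1 at 2709 CPM (counts per 1000000 after scaling of the library total), control 5 at 3177, control 4 at 3515, nano_high 4 at 4116 and nano_high 5 at 4431 CPM. The other 15 libraries ran from 4960 to 17348 CPM, and all 5 silica libraries were among them. Gut peptidases, 32 names taken by the wording trypsin or carboxypeptidase, summed to 8036 to 12140 CPM in nano_low, 9463 to 11951 in nano_high, 8325 to 12930 in silica and 10330 to 12910 CPM in control. Cuticle (43 names) and muscle (12 names) overlapped between all groups. Yolk (4 names) did so too, but silica and control only barely, at 9939 to 27907 CPM in silica and 27167 to 79662 CPM in control. Their means were 20214 and 48634 CPM. Values without the 5 libraries low in collagen, an alternative chosen after seeing the data, are given for some names only. Alpha-amylase and beta-hexosaminidase subunit alpha are among these names. Where no such values are given, a difference may still rest on those libraries. The first principal component, the main axis of difference among libraries over all names tested, held 38.9% of the variance. The 5 libraries low in collagen had its lowest values, -55.2 to -33.6, and the others ran from -12.3 to 39.9. Some fits added this component.

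Alpha-amylase, the enzyme that starts starch digestion, fell in nano_high. In replicates 1 to 5 it stood at 1422, 1463, 1627, 1972 and 2309 CPM in nano_high, against 2472, 2567, 2164, 4074 and 3838 CPM in control. Only the highest nano_high library reached into the range of the control group, where replicates 4 and 5 stood apart at the top. The means were 1759 ± 376 CPM in nano_high and 3023 ± 868 CPM in control (SD, n = 5 each), a 1.72-fold lower level (log2 fold change -0.78, SE 0.18, edgeR quasi-likelihood test, Benjamini-Hochberg adjusted p = 0.0101 over the 7564 names tested). With only these 2 groups in the fit the call was lost (adjusted p = 0.0607). Control 4 and 5 and nano_high 4 and 5, the highest 2 of each group, are 4 of the 5 libraries lowest in collagen. Without those 5 libraries, only replicates 1 to 3 of each of these 2 groups remained. Their nano_high values, 1422 to 1627 CPM, did not overlap their control values, 2164 to 2567 CPM. So few libraries can separate by sampling alone, and the share of all names that did so was not counted. In that fit the log2 fold change was -0.67 (edgeR adjusted p = 0.0151).

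The lower copolymer concentration and silica held alpha-amylase between these levels. It was at 2369, 2369, 2347, 1928 and 1848 CPM in nano_low, and at 2387, 1987, 2059, 2663 and 2043 CPM in silica. Both groups overlapped the control group. The log2 fold change was -0.48 in nano_low against control (an interval of 2 SE on each side ran over -0.83 to -0.12, adjusted p = 0.239) and -0.44 in silica against control (-0.79 to -0.09, adjusted p = 0.163), so neither passed the test. Without the 5 libraries low in collagen the same differences were -0.18 (adjusted p = 0.543) and -0.11 (adjusted p = 0.724). In order of level, nano_high was lowest at a mean of 1759 CPM, followed by nano_low at 2172 ± 261, silica at 2228 ± 290 and control at 3023 CPM. Of the neighbours in this order, nano_low and silica were not set against each other, and silica was not called against control. Nano_high was not called against nano_low (log2 fold change -0.30, 2 SE interval -0.66 to 0.05, adjusted p = 0.763) or against silica (-0.34, -0.69 to 0.01, adjusted p = 0.230). The difference from silica did pass when the first principal component was added to the fit (-0.56, adjusted p = 0.0262).

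**Figure D1:**
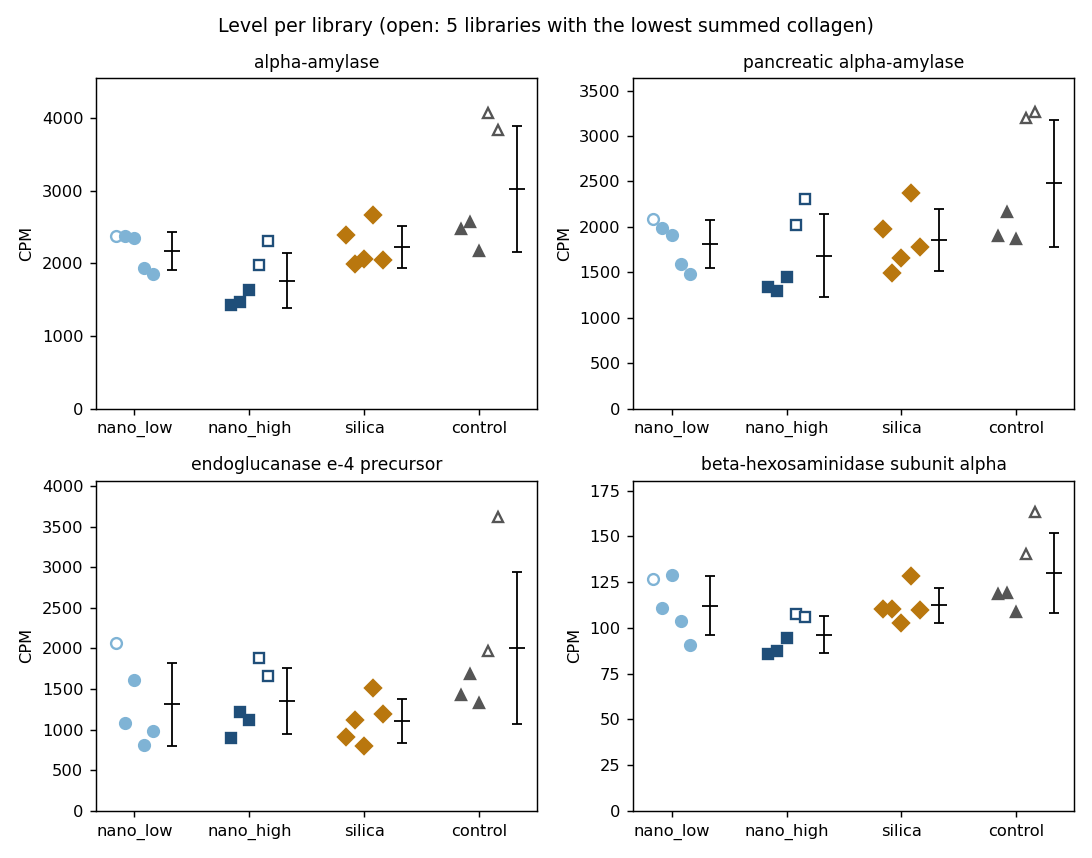
Level in CPM (vertical axes, from 0) of 4 enzymes in each library of nano_low, nano_high, silica and control, with bars for the mean ± SD (n = 5) and open symbols for the 5 libraries lowest in summed collagen. Alpha-amylase lies at 1422 to 2309 CPM in nano_high and at 2164 to 4074 CPM in control, and the open symbols are the highest in both groups.

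Pancreatic alpha-amylase, a second name for the same enzyme activity, ran beside alpha-amylase. It had 1341, 1293, 1450, 2026 and 2306 CPM in nano_high, against 1897, 2166, 1862, 3203 and 3263 CPM in control. It had 2082, 1993, 1909, 1586 and 1479 CPM in nano_low and 1979, 1492, 1654, 2376 and 1774 CPM in silica. In nano_high and in control replicates 4 and 5 were again the highest, and every exposed group overlapped the control group. The log2 fold changes against control were -0.45 in nano_low (adjusted p = 0.323), -0.56 in nano_high (SE 0.20, adjusted p = 0.0820) and -0.42 in silica (adjusted p = 0.213), and none passed. In nano_high it did pass by DESeq2 (adjusted p = 0.0466), with the first principal component added (adjusted p = 0.0318) and without nano_high 5 (adjusted p = 0.0409). Over the 20 libraries log2 levels of the 2 names had a Pearson's r of 0.952 (permutation p = 1e-05, the smallest 100000 permutations can give) and a Spearman's rho of 0.878 with the same p. Without control 4 and 5, r was 0.899. The names are descriptions of proteins, with no sequence beside them, so copies may share reads and the split of reads between the amylase names is uncertain.

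The other amylase names had few counts. Alpha-amylase/arp2_g99 had 2.90, 10.8, 3.18, 11.3 and 5.74 CPM in nano_low, 10.8, 6.25, 5.99, 4.29 and 4.71 in nano_high, 11.4, 8.51, 10.3, 12.4 and 5.87 in silica and 3.25, 5.14, 7.15, 6.54 and 5.16 CPM in control. Its silica libraries were mostly above control, with a log2 fold change of 0.84 (SE 0.36) that did not pass (adjusted p = 0.188). Its r with alpha-amylase over the 20 libraries was -0.17, given as a description. Alpha-amylase/arp2_g13270 was at 0 in 4 of the 5 nano_low and 4 of the 5 control libraries, and its highest value was 0.534 CPM in silica 5. At this depth no difference in it was detectable.

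The remaining names of the starch and trehalose class showed no call in the main fit, the edgeR fit of all 20 libraries without added terms. Lysosomal alpha-glucosidase protein, named for the enzyme that breaks down glycogen in lysosomes, had 439, 482, 473, 452 and 381 CPM in nano_low, 428, 393, 453, 466 and 373 in nano_high, 484, 421, 425, 523 and 438 in silica and 403, 359, 402, 459 and 618 CPM in control. The groups overlapped and the log2 fold changes against control were -0.01, -0.08 and 0.03 in nano_low, nano_high and silica (adjusted p = 0.978, 0.733 and 0.879). The further names of this class were singled out after their values were seen. Acid trehalase protein 1 had log2 fold changes of -0.58, -0.42 and -0.38 in nano_low, nano_high and silica against control (adjusted p = 0.293, 0.277 and 0.318), with the highest values of control, 95.6 and 83.2 CPM, in replicates 4 and 5. Alpha,alpha-trehalase had differences of -0.18, -0.05 and -0.29 and lysosomal alpha-glucosidase of -0.01, -0.03 and 0.13 on the same scale, with adjusted p of 0.418 or more. In the class as a whole, 7, 6 and 4 of 8 names lay below control in nano_low, nano_high and silica, with medians of -0.31, -0.07 and -0.13. Over all names these shares were 48.8%, 47.5% and 47.1%. Control 4 and 5 were the highest 2 of control in 4 of the 8 names (50%), against 23.9% of all names.

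Endoglucanases, which cut cellulose-type chains, were the class with the highest median coefficient of variation in each group. Endoglucanase e-4 precursor had 2066, 1076, 1608, 817 and 986 CPM in nano_low, 900, 1215, 1120, 1877 and 1660 in nano_high, 908, 1119, 802, 1507 and 1187 in silica and 1421, 1682, 1328, 1965 and 3621 CPM in control. Control 5 stood far above the other control libraries, and within nano_low, nano_high and control the 5 libraries low in collagen were the highest. All groups overlapped. The log2 fold changes against control were -0.61 in nano_low (SE 0.30, adjusted p = 0.367), -0.56 in nano_high (SE 0.30, adjusted p = 0.252) and -0.86 in silica (SE 0.30, 2 SE interval -1.46 to -0.26, adjusted p = 0.136), so none passed. Without the 5 libraries low in collagen they were -0.40 (adjusted p = 0.432), -0.45 (adjusted p = 0.275) and -0.42 (adjusted p = 0.381).

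The level of endoglucanase e-4 precursor went down across libraries as collagen went up. On the log2 scale its r with summed collagen was -0.864 and its rho -0.865 over the 20 libraries (permutation p = 1e-05 for both, the smallest possible, and 9e-05 after adjustment over 18 relations computed). Without control 5 and nano_low 1, the libraries farthest from the median collagen level, r was -0.842, and with each group centred on its mean it was -0.837. For alpha-amylase r with collagen was -0.537 (permutation p = 0.0143, adjusted p = 0.0285) and rho -0.385 (p = 0.0947, adjusted p = 0.142), with an r of -0.448 without the same 2 libraries and -0.616 with groups centred. The points share the library scaling, since CPM divides each value by the library total. The part of collagen levels in the differences between groups was not tested beyond 2 kinds of fit. These were the fits without the 5 libraries and those with the first principal component, on which the same 5 libraries lay lowest.

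**Figure D2:**
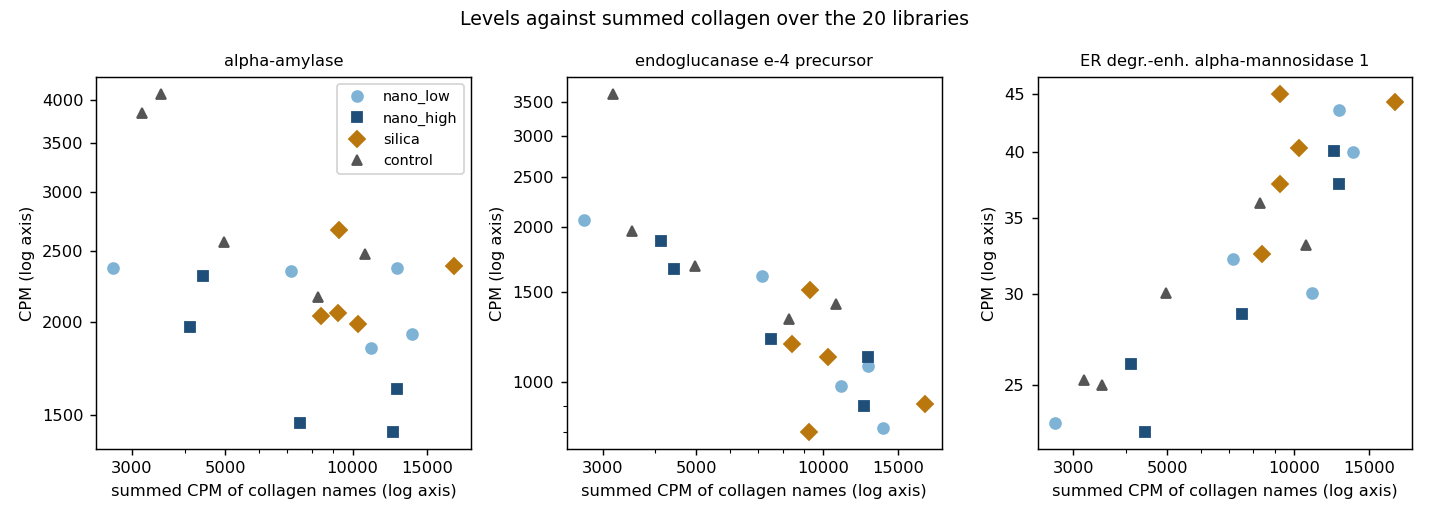
Level in CPM of alpha-amylase, endoglucanase e-4 precursor and er degradation-enhancing alpha-mannosidase protein 1 (vertical log axes) against the summed CPM of 30 collagen names (horizontal log axes), 1 point per library. Endoglucanase e-4 precursor goes down along the axis (r = -0.864), er degradation-enhancing alpha-mannosidase protein 1 goes up (r = 0.881), and the nano_high points of alpha-amylase, 1422 to 2309 CPM, lie low on their panel.

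The other endoglucanase names had the same libraries at the top of control. Endoglucanase had 24.6, 20.7, 26.3, 17.1 and 21.2 CPM in nano_low, 15.1, 22.5, 20.3, 27.9 and 25.8 in nano_high, 20.0, 15.5, 17.9, 16.8 and 19.6 in silica and 15.7, 19.2, 19.6, 39.1 and 31.8 CPM in control. Control 4 and 5 stood above every other library, and the log2 fold changes of -0.19, -0.17 and -0.48 in nano_low, nano_high and silica did not pass (adjusted p = 0.700, 0.689 and 0.200). Endoglucanase e-4 precursor/arp2_g8827 was at 6.28 to 13.5, 4.58 to 13.7, 5.67 to 13.8 and 6.89 to 18.6 CPM in nano_low, nano_high, silica and control, with differences of -0.39, -0.30 and -0.21 (adjusted p = 0.600, 0.614 and 0.682). All 3 names lay below control in each exposed group, beside 48.8%, 47.5% and 47.1% of all names in nano_low, nano_high and silica. These 3 comparisons share the control libraries.

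Among exoglycosidases, beta-hexosaminidase subunit alpha fell in nano_high. This lysosomal enzyme takes amino sugars from the ends of glycans and glycolipids in vertebrates. It had 85.7, 87.4, 94.5, 108 and 106 CPM in nano_high, against 118, 119, 109, 140 and 163 CPM in control. The 2 groups did not overlap, although the highest nano_high library and the lowest control library lay close together. It was 1.35-fold lower in nano_high (log2 fold change -0.43, SE 0.12, edgeR adjusted p = 0.0269). In nano_low it had 127, 111, 129, 104 and 90.5 CPM and in silica 110, 110, 103, 128 and 110 CPM, both overlapping control, with log2 fold changes of -0.21 each (adjusted p = 0.435 and 0.277). Nano_high was not called against nano_low (-0.22, adjusted p = 0.762) or against silica (-0.22, adjusted p = 0.244), though with the first principal component added the difference from silica passed (-0.36, adjusted p = 0.0258).

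The call on beta-hexosaminidase subunit alpha was lost under several settings. Without the 5 libraries low in collagen its difference was -0.37 with an adjusted p of 0.0625, and it also missed the threshold without nano_high 1, 2 or 3 (adjusted p = 0.0637, 0.0685 and 0.0606) or control 4 or 5 (0.0633 and 0.0788). Its log2 levels went down with the library total over the 20 libraries (r = -0.557, permutation p = 0.00995, adjusted p = 0.0224; rho = -0.568, permutation p = 0.00988, adjusted p = 0.0296). The r was -0.674 without nano_high 4 and silica 5, and -0.365 with groups centred (permutation p = 0.115). For alpha-amylase the r with the library total was -0.389 (permutation p = 0.0901, adjusted p = 0.135) and -0.06 with groups centred. With all libraries thinned to the smallest total both names were called again, with adjusted p of 0.0265 for beta-hexosaminidase subunit alpha and 0.0114 for alpha-amylase. Thinning lowers the counts but keeps the expected CPM of each name, so it could not remove a relation of level with library total. Each nano_high library was deeper than each control library, so depth and exposure cannot be told apart in this comparison.

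The other exoglycosidase names were not called in any comparison of the main edgeR fit. Lysosomal alpha-mannosidase, which takes mannose from glycans, had 551, 594, 578, 559 and 493 CPM in nano_low, 522, 521, 569, 593 and 450 in nano_high, 594, 512, 580, 617 and 487 in silica and 534, 465, 493, 590 and 695 CPM in control, and its log2 fold changes against control were -0.00036, -0.07 and 0.01. Its groups overlapped widely. Beta-galactosidase-1 protein 2, named for an enzyme that removes terminal galactose, had 315, 446, 346, 349 and 302 CPM in nano_low, 380, 320, 475, 360 and 458 in nano_high, 425, 300, 313, 519 and 320 in silica and 300, 331, 330, 410 and 528 CPM in control. Beta-galactosidase precursor/arp2_g340 had 191, 178, 230, 234 and 257 CPM in nano_high and 249, 277, 267, 322 and 370 CPM in control, overlapping by the highest nano_high library only (log2 fold change -0.45, SE 0.20, adjusted p = 0.181).

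Of the exoglycosidases singled out after their values were seen, plasma alpha-l-fucosidase, which removes fucose, came closest to a call. It had 150, 133, 143, 150 and 118 CPM in nano_high, against 163, 153, 186, 174 and 173 CPM in control. The groups did not overlap, yet the log2 fold change of -0.29 (SE 0.09) just missed the threshold at an adjusted p of 0.0507, and it was called under several other settings. Beta-mannosidase had 112, 131, 135, 205 and 141 CPM in nano_high and 158, 157, 151, 227 and 340 CPM in control (log2 fold change -0.51, adjusted p = 0.148). Beta-mannosidase precursor/arp2_g1131 was at 0 in 4 of 5 control libraries and reached 0.478 CPM at most. Over the 13 names of the class, those below control numbered 11 in nano_low, 11 in nano_high and 8 in silica, with medians of -0.10, -0.09 and -0.04. Over all names, 48.8%, 47.5% and 47.1% lay below control. Control 4 and 5 were the highest 2 of control in 8 names of the class (61.5%), against 23.9% of all names.

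Of the 12 names of glycoprotein processing 0 passed in nano_high against control in the main edgeR fit. There 4 had an unadjusted p under 0.05, and DESeq2 called 3 higher and 1 lower. Over all names in this comparison 10.1% passed by edgeR, 24.8% had an unadjusted p under 0.05 and 15.9% passed by DESeq2. Neutral alpha-glucosidase c had 271, 287, 314, 261 and 252 CPM in nano_high, against 261, 250, 236, 243 and 216 CPM in control (log2 fold change 0.20, SE 0.08, adjusted p = 0.123). Alpha-mannosidase 2x, a Golgi enzyme that trims mannose in vertebrates, had 146, 142, 143, 129 and 139 CPM in nano_high, against 120, 112, 108, 141 and 120 CPM in control. Control 4 alone reached into the nano_high range, and the difference of 0.22 (SE 0.08) did not pass (adjusted p = 0.103). Without the 5 libraries low in collagen it was 0.34 and passed (adjusted p = 0.0363). Glucosidase 2 subunit beta, part of the enzyme that takes glucose from new glycoproteins, had 88.6, 87.4, 98.0, 77.0 and 79.4 CPM in nano_high and 97.4, 91.6, 93.0, 82.5 and 63.4 CPM in control, a difference of 0.01 (adjusted p = 0.977).

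In 2 further processing enzymes, singled out after their values were seen, the differences from control ran in opposite directions. Mannosyl-oligosaccharide alpha-1,2-mannosidase, which trims mannose from new glycoproteins, had 33.6, 48.9, 45.1, 51.9 and 40.6 CPM in nano_low, 48.0, 39.0, 51.4, 34.8 and 41.9 in nano_high, 40.2, 42.6, 40.04, 49.2 and 39.8 in silica and 31.8, 36.4, 37.0, 30.6 and 30.8 CPM in control. The silica group lay wholly above control, and the other exposed groups overlapped it by their lowest library. The log2 fold changes were 0.40, 0.37 and 0.35 in nano_low, nano_high and silica (adjusted p = 0.129, 0.0575 and 0.136). In nano_high the name was called by DESeq2, with the first principal component added and without nano_high 4. In nano_low it was called without nano_low 1. Er degradation-enhancing alpha-mannosidase protein 2, of a family that marks misfolded glycoproteins for destruction in vertebrates and yeast, had 9.57, 9.73, 7.64, 7.40 and 7.71 CPM in nano_high, against 10.7, 12.9, 8.43, 15.2 and 17.6 CPM in control. Only control 3 lay within the nano_high range, and the difference of -0.62 (SE 0.20) stood at an adjusted p of 0.0512. It was called by DESeq2, with edgeR's own filter, with the first principal component added, and without control 1 or control 3.

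Er degradation-enhancing alpha-mannosidase protein 1, of the same family and also singled out after its values were seen, went up along collagen. Among the 40 names, others went each way. It had 23.1, 43.6, 32.2, 40.05 and 30.1 CPM in nano_low, 40.1, 28.9, 37.5, 26.1 and 22.7 in nano_high, 44.3, 40.3, 37.5, 44.98 and 32.6 in silica and 33.2, 30.1, 36.1, 25.004 and 25.2 CPM in control. Within nano_low, nano_high and control the libraries low in collagen were the lowest. Its r with summed collagen over the 20 libraries was 0.881. Also positive were mannosyl-oligosaccharide 1,2-alpha-mannosidase ia at 0.820, lysosomal alpha-glucosidase at 0.690 and mannosyl-oligosaccharide alpha-1,2-mannosidase at 0.687. Negative were acid trehalase protein 1, hexosaminidase d and alpha,alpha-trehalase at -0.790, -0.845 and -0.884, and neutral alpha-glucosidase ab,ec:3.2.1.84/sw at -0.862. These r were computed for all 40 names on log2(CPM + 0.5) and are descriptions.

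Across the 40 names, control 4 and 5 were the highest 2 of the control group in 21 names (52.5%), against 23.9% of all 7564 names tested. Nano_high 4 and 5 were the highest 2 of their group in 13 (32.5%, against 26.0%), and nano_low 1 the highest of its group in 14 (35%, against 33.7%). All of these held together in 9 names (22.5%, against 10.7%): alpha-amylase, pancreatic alpha-amylase, acid trehalase protein 1, beta-mannosidase, hexosaminidase d, neutral alpha-glucosidase ab,ec:3.2.1.84/sw, tubulin polyglutamylase ttll4, and endoglucanase e-4 precursor with its arp2_g8827 row. The same libraries were the lowest in 1 name, er degradation-enhancing alpha-mannosidase protein 1 (2.50%, against 13.3%). The spread among control libraries also differed by class. Its median coefficient of variation was 41.2% in cell wall, 27.7% in starch and trehalose, 16.6% in exoglycosidases and 11.0% in glycoprotein processing names with a mean above 1 CPM.

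**Figure D3:**
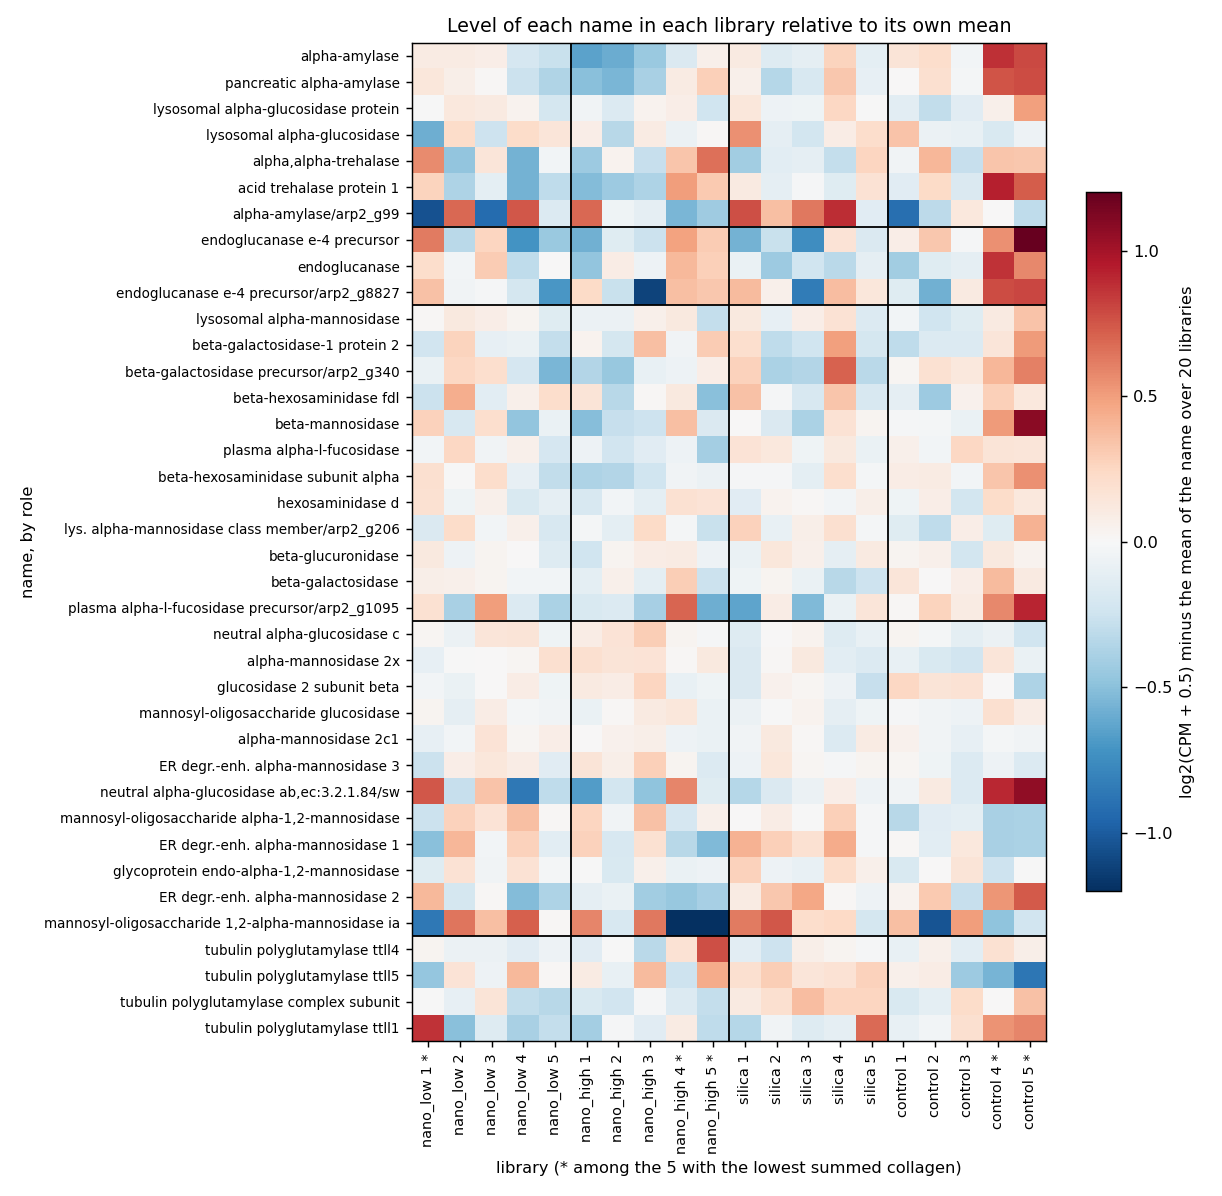
Log2(CPM + 0.5) minus each name's mean over the 20 libraries, for the 38 of the 40 names with a mean above 1 CPM (rows, by class) in each library (columns, by group; a star marks the 5 libraries lowest in summed collagen). Within the control columns, the rows of alpha-amylase, pancreatic alpha-amylase, acid trehalase protein 1 and the endoglucanases are highest in the starred ones, and er degradation-enhancing alpha-mannosidase protein 1 is lowest in the starred columns of each group that has them.

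The 4 tubulin polyglutamylase names were not called in any comparison of the main edgeR fit. Tubulin polyglutamylase complex subunit had 6.08, 5.88, 6.91, 6.19 and 5.63 CPM in nano_high, against 7.56, 8.01, 9.19, 8.42 and 8.404 CPM in silica. These 2 groups did not overlap, and the log2 fold change of -0.44 (SE 0.13) lay at an adjusted p of 0.0532. This name was called there after thinning, with the first principal component added and without nano_high 3. Tubulin polyglutamylase ttll5 had 22.9, 24.6, 22.1, 22.6 and 24.3 CPM in silica, against 20.8, 21.3, 14.6, 13.4 and 10.7 CPM in control, without overlap (log2 fold change 0.52, SE 0.19, adjusted p = 0.140). In nano_high against control its log2 fold change was 0.45 (edgeR adjusted p = 0.142), and it was called there after thinning. Tubulin polyglutamylase ttll4 had 32.6, 35.6, 28.6, 40.5 and 61.6 CPM in nano_high and 33.6, 37.4, 32.8, 40.9 and 37.6 CPM in control, with nano_high 5 far above the others (log2 fold change 0.13).

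All 40 names passed the filter on low values, which asks for 1 count or more in 5 or more libraries. Of them, 0 were higher and 2 lower in nano_high against control (5.00%), where 10.1% of all names were called, 5.17% higher and 4.89% lower. The share of the enzymes called was no larger than that of all names. Their median log2 fold change was -0.04, beside 0.02 over all names, and 27 of the 40 (67.5%) lay below 0, beside 47.5% of all names. By unadjusted p, 11 of the 40 (27.5%) were under 0.05, beside 24.8% of all names. DESeq2 called 8 (20%, 3 higher and 5 lower), beside 15.9% of the names to which it gave an adjusted p.

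In nano_low against control 0 of the 40 passed, where 0.621% of all names were called. By unadjusted p, 5 were under 0.05 (12.5%, beside 14.1% of all names), and DESeq2 called 0, beside 3.01% of all names with an adjusted p. The median was -0.08, beside 0.01 over all names, and 28 lay below 0 (70%, beside 48.8%). Against control 0 passed in silica as well, where 0.701% of all names were called. There 10 had an unadjusted p under 0.05 (25%, beside 23.2% of all names), and DESeq2 called 0, beside 5.61%. The median was -0.03, beside 0.03 over all names, and 21 lay below 0 (52.5%, beside 47.1%). All 3 exposures were set against the same control libraries, so their values are not independent of each other.

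Between exposures, 0 of the 40 passed in nano_high against nano_low, where 0% of all names were called, 0 of the 40 had an unadjusted p under 0.05 (beside 6.76% of all names), and DESeq2 called 0 (beside 0.053%). In nano_high against silica 0 passed by edgeR, where 5.35% of all names were called, while 5 had an unadjusted p under 0.05 (12.5%, beside 25.2% of all names). DESeq2 called 1 of the 40 there, tubulin polyglutamylase complex subunit (2.5%, beside 12.2%). The medians were -0.03 and -0.08, beside 0.01 and -0.01 over all names.

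**Figure D4:**
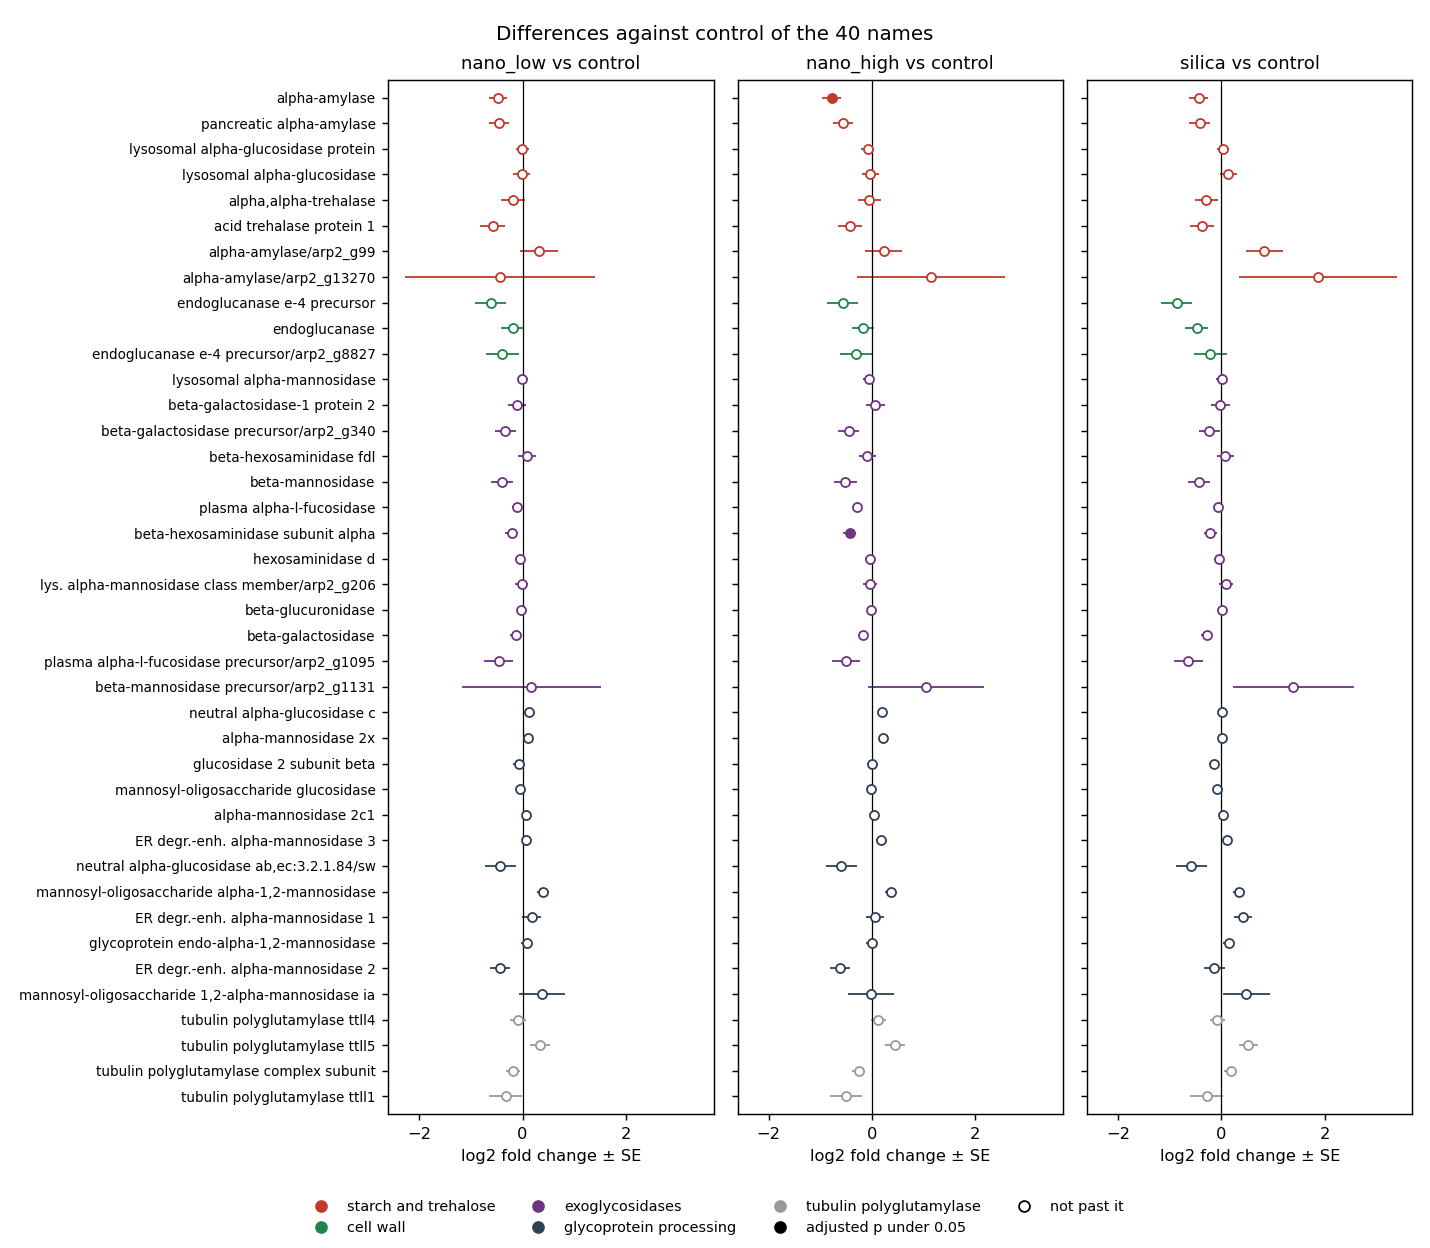
Log2 fold change ± SE (horizontal axes) of the 40 names in nano_low, nano_high and silica against control, 1 row per name, coloured by class, with filled points for an adjusted p under 0.05 by edgeR. The filled points are alpha-amylase at -0.78 and beta-hexosaminidase subunit alpha at -0.43, both in nano_high.

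Lists of other genes of digestion and sugar metabolism were drawn by wording from the same table. Calls on their single names are those of the main fit and were not followed through the other settings. In nano_high against control, 4 of 33 digestive peptidases fell and 0 rose (12.1%, with 10.1% of all names called). These peptidases were taken by wording such as trypsin or carboxypeptidase, and some of them may act outside the gut. Chymotrypsin proteinase 6e precursor had 49.9 ± 13.1 CPM in nano_high and 124 ± 38.8 CPM in control (SD, n = 5 each; log2 fold change -1.31, SE 0.23, edgeR adjusted p = 0.00266). Meprin a subunit alpha, trypsin-like serine protease/arp2_g2499 and glutamate carboxypeptidase were also lower, with log2 fold changes of -1.23, -1.24 and -0.42, and the list median was -0.09.

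Of 17 lipases by wording, which split fats, 2 fell and 1 rose in nano_high against control. This was 17.6% of them, beside 10.1% of all names, 5.17% higher and 4.89% lower. Pancreatic triacylglycerol lipase had 431 ± 105 CPM in nano_high and 753 ± 311 CPM in control (log2 fold change -0.80, edgeR adjusted p = 0.0390), hepatic triacylglycerol lipase fell by 1.63 on the log2 scale, and bile salt-activated lipase rose by 0.35 (adjusted p = 0.0489). The list median was -0.12. Against silica, nano_high had lower meprin a subunit alpha (log2 fold change -1.34, adjusted p = 0.0202) and hepatic triacylglycerol lipase (-0.93, adjusted p = 0.0495). These were 1 of 33 digestive peptidases (3.03%) and 1 of 17 lipases (5.88%), where 5.35% of all names were called.

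Other lists on sugars were also counted in nano_high against control, where 10.1% of all names passed by edgeR and 15.9% by DESeq2. Of 19 chitin enzymes, 8 other glycosidases and 12 sugar transporters 0 were called, with 1, 2 and 0 at an unadjusted p under 0.05 and 0, 1 and 0 called by DESeq2. Of 8 names of glycogen and trehalose metabolism 1 was higher (12.5%), glycogen synthase kinase-3 beta (log2 fold change 0.34), a protein kinase that entered by wording. Of 18 glycolysis names 1 was lower, deoxyribose-phosphate aldolase (-0.34), which breaks down a sugar of nucleotides. Glycogen synthase, which builds glycogen, was lower in nano_high against silica, at 11.1 ± 1.90 CPM in nano_high and 20.5 ± 4.28 CPM in silica (log2 fold change -0.88, edgeR adjusted p = 0.0238). It was the 1 of the 8 names of its list called there (12.5%), beside 5.35% of all names. Calls over all names in that comparison fell from 405 to 38 without the 5 libraries low in collagen. They fell to 36 with only the 2 groups in the fit. In nano_low and in silica against control, 0 of the 115 names of these 7 lists passed by edgeR. At an unadjusted p under 0.05 there were 14 in nano_low (12.2%, beside 14.1% of all names) and 24 in silica (20.9%, beside 23.2%). DESeq2 called 1 in nano_low (0.87%, beside 3.01%) and 4 in silica (3.48%, beside 5.61%).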

How the data were processed

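Poly-A RNA of pooled whole daphnids was sequenced in 20 libraries, 5 per group, after a stranded preparation per the labels' protocols. Salmon 0.12.0 and R 3.4.3 appear in the submitters' processing notes. No source used here states the transcript reference or how transcripts were joined under names. Estimated counts (expected counts) for 7784 names make up the deposited table, which is called normalized, but its library totals differ from 7912434 to 95906857, so the values were treated as counts not scaled to a common depth. Depth sets the precision, and the shallowest library limits the low names. The names matched no symbol or locus tag of the reference table, so gene positions, lengths and sequences were not used here, and levels of different names, which would need lengths, are not tested against each other.

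Values were rounded to whole numbers. The filter asked for 1 count or more in 5 or more libraries, which left 7564 names and removed 220. Scaling was by TMM. The model, fitted in edgeR 4.0.16 (R 4.3.3) over all 20 libraries, had one mean per group (quasi-likelihood test, two-sided, Benjamini-Hochberg adjustment over all names tested, threshold 0.05), and the SE was taken from the fold change and its F value. DESeq2 1.42.0 was an alternative. Others changed the scaling, the filter, the groups fitted and the depth, added a replicate block or the first principal component, or left out each library in turn. Relations across libraries used 100000 permutations (Python 3.11.15, scipy 1.17.1, numpy 2.4.6, pandas 2.3.3), and figures matplotlib 3.10.9. Libraries were pooled for sequencing per the labels' protocols, without saying which shared a pool, so such batches could not be examined. No library was a copy of another.

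Named with values were the names called in any comparison, every name with alpha-amylase, and the 3 names of highest mean CPM in each class. Other names with values were chosen after their values were seen. The enzyme names and all lists were chosen with earlier results of these data known.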

Additional observations from a re-analysis of the deposited data

Results flagged for a closer look

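Of 72 groups of 5 libraries checked, 3 held 1 library far from the other 4, and chance gives about 1 in 20. Endoglucanase e-4 precursor, the cellulose-type chain cutter, stood at 3621 CPM in control 5, against 1328 to 1965 CPM in the other control libraries, a gap of 0.722 of the whole range (limit 0.71). Control 5 is also the control library with the lowest summed collagen, 3177 CPM. Alpha-amylase/arp2_g13270 was at 0.108 CPM in nano_low 5 with 0 in the other nano_low libraries, and at 0.308 CPM in control 5 with 0 in the other control libraries. Both values rest on under 4 counts.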

How the results depend on the processing

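Of the enzyme names, 2 were called in nano_high against control, and the number was 2 with RLE scaling, 3 without a filter, 4 with edgeR's own filter, 8 by DESeq2, 0 with only the 2 groups in the fit, 4 after thinning, 7 with the first principal component and 1 to 5 with each library left out. In nano_low against control it was 0, and 0 to 1 with each library left out. In nano_high against silica it was 0, but 1 by DESeq2, 1 after thinning, 6 with the first principal component and 0 to 1 with each library left out. In silica against control and in nano_high against nano_low it was 0 under every setting run. Alpha-amylase kept its call in nano_high against control in every setting except the fit of the 2 groups (adjusted p = 0.0607), with log2 fold changes of -0.90 to -0.65 and adjusted p of 0.000592 to 0.0607; the cause was not tested. Beta-hexosaminidase subunit alpha was lost with the 2 groups (0.0755). No setting turned the direction of a called name. The labels do not say that a replicate number pairs libraries, and in no comparison were all 5 pairs over 0.1, so the numbers were not taken as a pairing. The correlation of deviations of same-numbered libraries ran over -0.615 to 0.0768 in nano_low and control, -0.0436 to 0.650 in nano_high and control (4 of 5 over 0.1), -0.116 to 0.315 in silica and control, -0.636 to -0.0566 in nano_high and nano_low and -0.131 to 0.377 in nano_high and silica. With the replicate block 2 names were called in nano_high against control, the same ones, and 0 in the other comparisons. Over all names, calls moved by over 1.5 times in these cases. Nano_low against control had 47, but 227 by DESeq2, 187 with the first principal component, 3 with the 2 groups, 13 with the block and 8 to 236 with each library left out. Nano_high against control had 761, but 1152 by DESeq2, 1748 with the component, 372 with the 2 groups and 413 to 967 with each library left out. Silica against control had 53, but 399 by DESeq2, 0 with the component, 401 with the 2 groups, 0 with the block, 0 without the 5 libraries low in collagen and 0 to 132 with each library left out. Nano_high against nano_low had 0, but 4 by DESeq2. Nano_high against silica had 405, but 919 by DESeq2, 652 with the component, 36 with the 2 groups, 267 with the block, 38 without the 5 libraries and 77 to 648 with each library left out. No setting moved the median of all names by over 0.1 on the log2 scale. Depth limits alpha-amylase/arp2_g13270 and beta-mannosidase precursor/arp2_g1131, which had low counts and reached 1 count in 8 and 12 of the 20 libraries.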

Other observations

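Beta-hexosaminidase subunit alpha, a lysosomal enzyme by name, followed alpha-amylase across the 20 libraries more closely than the endoglucanases did. On log2(CPM + 0.5) its r with alpha-amylase was 0.925, after 0.952 for pancreatic alpha-amylase, and ahead of 0.789 for beta-galactosidase precursor/arp2_g340, 0.782 for beta-mannosidase and 0.770 for acid trehalase protein 1. Neutral alpha-glucosidase c, placed in glycoprotein processing by its wording only, had the lowest r of the 40 names, -0.658. These values are descriptions over libraries that share their scaling and include control 4 and 5, which stood apart.

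Yolk names and endoglucanase e-4 precursor were high in the same libraries. The 4 yolk names summed to 14146 to 62011 CPM in nano_low, 20151 to 139917 in nano_high, 9939 to 27907 in silica and 27167 to 79662 CPM in control. Their r with endoglucanase e-4 precursor was 0.687 (permutation p = 0.0007, adjusted p = 0.0042 over 18 relations) and rho 0.753 (permutation p = 0.00019), with an r of 0.677 without nano_high 4 and silica 1 and 0.661 with groups centred. With alpha-amylase the r of yolk was 0.284 (permutation p = 0.228) and rho 0.226 (0.337), with an r of 0.493 without nano_high 4 and silica 1 and of 0.498 with groups centred (permutation p = 0.039, adjusted p = 0.054). Gut peptidases had an r of 0.456 with alpha-amylase (permutation p = 0.0419, adjusted p = 0.0755) and a rho of 0.451 (permutation p = 0.0476, adjusted p = 0.0857). This r was 0.433 without nano_low 5 and silica 2, and 0.630 with groups centred (permutation p = 0.00153, adjusted p = 0.00688). With pancreatic alpha-amylase their r was 0.576 (permutation p = 0.00752, adjusted p = 0.0193). It was 0.283 with endoglucanase e-4 precursor and 0.360 with beta-hexosaminidase subunit alpha (adjusted permutation p = 0.265 and 0.166).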
